A study of Mus musculus with 57 samples.

Results

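The 10 genes described here encode the main structural proteins of the cardiac sarcomere and were taken by their symbols: Myh6, Myh7, Myl2, Mybpc3, Actc1, Acta1, Tnnt2, Tnni3, Actn2 and Ttn. All 10 were listed in both count tables, out of 25416 genes in the acute and 54658 genes in the chronic study, and all 10 passed the filter on low counts in both studies. The rule used only the names and no measured value.

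The sarcomere is the contractile unit of the heart muscle cell. Thick filaments of myosin pull on thin filaments of actin when calcium binds to the troponin complex, the thin filaments are anchored in the Z disc, and titin spans from the Z disc to the M band as a spring. The adult mouse ventricle uses mainly the fast α-myosin heavy chain (Myh6) and cardiac α-actin (Actc1), whereas the slower β-myosin heavy chain (Myh7) and skeletal α-actin (Acta1) belong to the fetal heart, and their return in the adult heart is a widely used sign of cardiac stress.

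RNA-seq was performed on heart tissue of male WT C57BL6/J (B6) mice. In the acute study, mice bought at 9 weeks of age received saline (Ctrl, n = 14), 1 i.p. injection of 20 mg/kg doxorubicin, an anthracycline used in chemotherapy (Doxo, n = 13), or the same injection with i.p. nicotinamide mononucleotide (NMN), a precursor of NAD+, at 180 mg/kg/day from 5 days before it (Doxo-NMN, n = 13), and hearts were collected at day 5. In the chronic study, mice of 14 to 16 weeks received PBS (Ctrl, n = 5), 5 injections of 4 mg/kg Doxo (Doxo, n = 6), or the same injections with NMN in the drinking water at 500 mg/kg/day from 5 days before them (Doxo-NMN, n = 6), and hearts were collected at day 60. Hearts could only be taken from mice that lived until collection, and the studies were carried out at different sites with different sequencing providers. The values are the authors' counts of reads per gene, given here as CPM, which scales each count to the normalized library total, and a gene was called at an adjusted p-value under 0.05 in edgeR's quasi-likelihood F-test over all tested genes of a study.

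Acute hearts held between 32409622 and 52102850 counts and chronic hearts between 17769886 and 23862287, of which the 10 genes together took 4.28 to 8.98% and 6.84 to 9.52%. At these levels, each of the 10 genes was far above 3 counts, a floor of 0.0576 to 0.0926 CPM (acute) or 0.126 to 0.169 CPM (chronic). The summed CPM of 8 cardiomyocyte markers was 18153 to 35857 in acute and 17887 to 30150 in chronic hearts, so that the labelled tissue was present in every library. Markers of other muscle varied. The summed CPM of 6 atrial markers ran from 44.5 to 5708 (median 2814) in acute Ctrl, from 33 to 1880 (median 56.2) in acute Doxo and from 27.6 to 3979 (median 59.9) in acute Doxo-NMN hearts, and with a limit of 100 CPM of the atrial light chain gene Myl4, 8 of 14, 5 of 13 and 4 of 13 hearts held atrial tissue. The summed CPM of 8 skeletal muscle markers was 2.55 to 7.26 in acute and 486 to 2693 in chronic hearts.

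Among the hearts, 4 stood apart. Acute Doxo heart 6 had 453 CPM of Myh7, which is within the acute Ctrl range, and acute Doxo-NMN heart 10 had 14648 CPM of Myh7. Chronic Doxo heart 2 had 23152 CPM of Myh7, and chronic Ctrl heart 1 had 7183 CPM of Actc1, the lowest of its group, and a skeletal muscle marker sum of 2693 CPM. Chronic Ctrl heart 2 was close to it in this sum (2358 CPM), against 725 to 768 CPM in the other Ctrl hearts. As these 3 Doxo and Doxo-NMN hearts were set apart by Myh7 itself, values of Myh7 and its ratio without them are descriptions. Results are given with all hearts first and without these 4 hearts where this changed them. Chronic Doxo-NMN hearts 1 and 4 also lay far from their group in single values, which are given below. Both were kept when the 4 hearts were left out. Since these are bulk samples, fewer heart muscle cells and less RNA per cell cannot be told apart.

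The pair Myh7 and Myh6 and the pair Acta1 and Actc1 have similar sequences, which bears on how far their reads can be told apart. The coding sequence of Myh7 (chr14:54970684-54994626, minus strand) has 5805 bases and that of the neighbouring Myh6 (chr14:54941921-54966927, minus strand) has 5814, with 91.5% identical bases. Those of Acta1 (chr8:123891769-123894751, minus strand) and Actc1 (chr2:114047282-114053548, minus strand) have 1131 bases each with 86.3% identical bases. Of the 9073 different stretches of 150 bases, the read length, in the Myh7 transcripts, 330 (3.64%) were also found in those of Myh6, whereas of 1446 in the Acta1 transcripts 0 were found in those of Actc1. The first 90 coding bases are shown to let the pairs be compared, with the bases that differ within a pair in capitals (GENCODE vM21 transcripts on GRCm38).
Myh7: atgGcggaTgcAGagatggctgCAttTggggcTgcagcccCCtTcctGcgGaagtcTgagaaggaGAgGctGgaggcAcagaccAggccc
Myh6: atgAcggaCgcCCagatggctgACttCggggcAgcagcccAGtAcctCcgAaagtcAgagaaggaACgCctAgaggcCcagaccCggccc
Acta1: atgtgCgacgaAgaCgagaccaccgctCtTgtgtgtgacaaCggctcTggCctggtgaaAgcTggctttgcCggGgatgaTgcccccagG
Actc1: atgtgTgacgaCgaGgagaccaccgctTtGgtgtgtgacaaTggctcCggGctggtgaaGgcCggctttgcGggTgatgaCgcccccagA
In these stretches, the myosin genes differed at 20 bases and the actin genes at 14.

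The promoters of the isoforms that belong to the fetal heart and of Actc1 are shown because these 3 of the 10 genes had the largest differences in level in acute Doxo vs. Ctrl. They are the 250 bases before a RefSeq transcription start (GRCm38.p6), all on the minus strand, from chr14:54994627-54994876 (Myh7), chr8:123894776-123895025 (Acta1) and chr2:114052876-114053125 (Actc1). Myh7 has another RefSeq start, whose window (chr14:54994550-54994799) held none of the motifs searched and is not shown. Capitals mark the CArG box, the motif of serum response factor, and the M-CAT motif CATTCC of TEAD factors, and all motifs were searched on both strands.
Myh7: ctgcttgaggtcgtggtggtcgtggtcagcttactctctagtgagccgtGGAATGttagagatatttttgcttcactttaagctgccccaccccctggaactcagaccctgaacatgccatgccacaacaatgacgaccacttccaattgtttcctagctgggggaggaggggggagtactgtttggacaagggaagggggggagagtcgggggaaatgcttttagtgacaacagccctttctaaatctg
Acta1: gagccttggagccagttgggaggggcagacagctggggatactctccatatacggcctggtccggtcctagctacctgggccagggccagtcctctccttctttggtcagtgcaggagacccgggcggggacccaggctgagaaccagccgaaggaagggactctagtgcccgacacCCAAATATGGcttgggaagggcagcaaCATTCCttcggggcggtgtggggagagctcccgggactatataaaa
Actc1: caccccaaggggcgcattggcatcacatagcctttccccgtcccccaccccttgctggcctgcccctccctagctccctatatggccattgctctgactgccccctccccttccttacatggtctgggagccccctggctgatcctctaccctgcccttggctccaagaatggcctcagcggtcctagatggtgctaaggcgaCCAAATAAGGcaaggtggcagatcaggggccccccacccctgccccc
A CArG box was found in 2 of the 10 genes, Acta1 and Actc1, and in 1.47% of 32851 promoter windows of the same length. CATTCC was found in 4 of the 10 genes (Myh6, Myh7, Acta1 and Tnnt2) and in 12.6% of all windows, a MEF2 box in 2 (Mybpc3 and Ttn) and in 0.508%, and TATAAA in 2 (Acta1 and Myl2) and in 12.4%. No motif overlapped another in the windows shown. Myh7, Tnnt2 and Myl2 had 2 windows each, and a gene was counted if any of its windows held the motif, whereas the percentages are per window. Both Myl2 windows (chr5:122092474-122092723 and chr5:122092939-122093188, plus strand) lay well before the GENCODE start of Myl2 at 122100951. The bases next to that start were not searched, so the Myl2 result holds for these windows only. These are matches of letters only, and binding was not measured.

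Levels can be compared between genes only per length of the transcribed exons. The length used was that of all GENCODE exons of a gene, merged over its transcripts (7752 bases for Tnnt2, 8616 for Myh7 and 6726 for Myh6). The levels per kb and the absolute values of the ratios below depend on this choice, whereas differences between groups do not. In acute Ctrl hearts, Myh6 had 4980 ± 318 CPM per kb (SD, n = 14), Actc1 4543 ± 706, Myl2 2801 ± 521, Tnni3 1787 ± 159, Tnnt2 1141 ± 98.1, Mybpc3 863 ± 136, Actn2 485 ± 49.6, Acta1 150 ± 74.0, Ttn 54.5 ± 5.33 and Myh7 49.2 ± 4.37 CPM per kb. In this order, the ranges of the neighbours Myh6 and Actc1, Actc1 and Myl2, Tnnt2 and Mybpc3, Acta1 and Ttn, and Ttn and Myh7 overlapped, whereas those of the other neighbours did not. In chronic Ctrl hearts, the order ran from Actc1 (6417 ± 1131 CPM per kb, n = 5) and Myh6 (4826 ± 671) to Myh7 (50.7 ± 11.6) and Ttn (28.2 ± 4.25), and Acta1 had 445 ± 156.

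In the acute study, Doxo was compared to Ctrl to ask how a single high dose changed these genes. Myh7, Actn2 and Tnnt2 increased and Myh6, Actc1, Acta1, Tnni3, Myl2 and Ttn decreased, and Mybpc3 did not pass the test. Thus 9 of the 10 genes were called, in a comparison in which 68.1% of 14240 tested genes were called, and 6 of the 10 had a fold change of at least 1.5 as well, against 30.1% of all tested genes. The median absolute log2 fold change was 0.64 for the 10 genes and 0.37 for all tested genes.

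**Figure D1:**
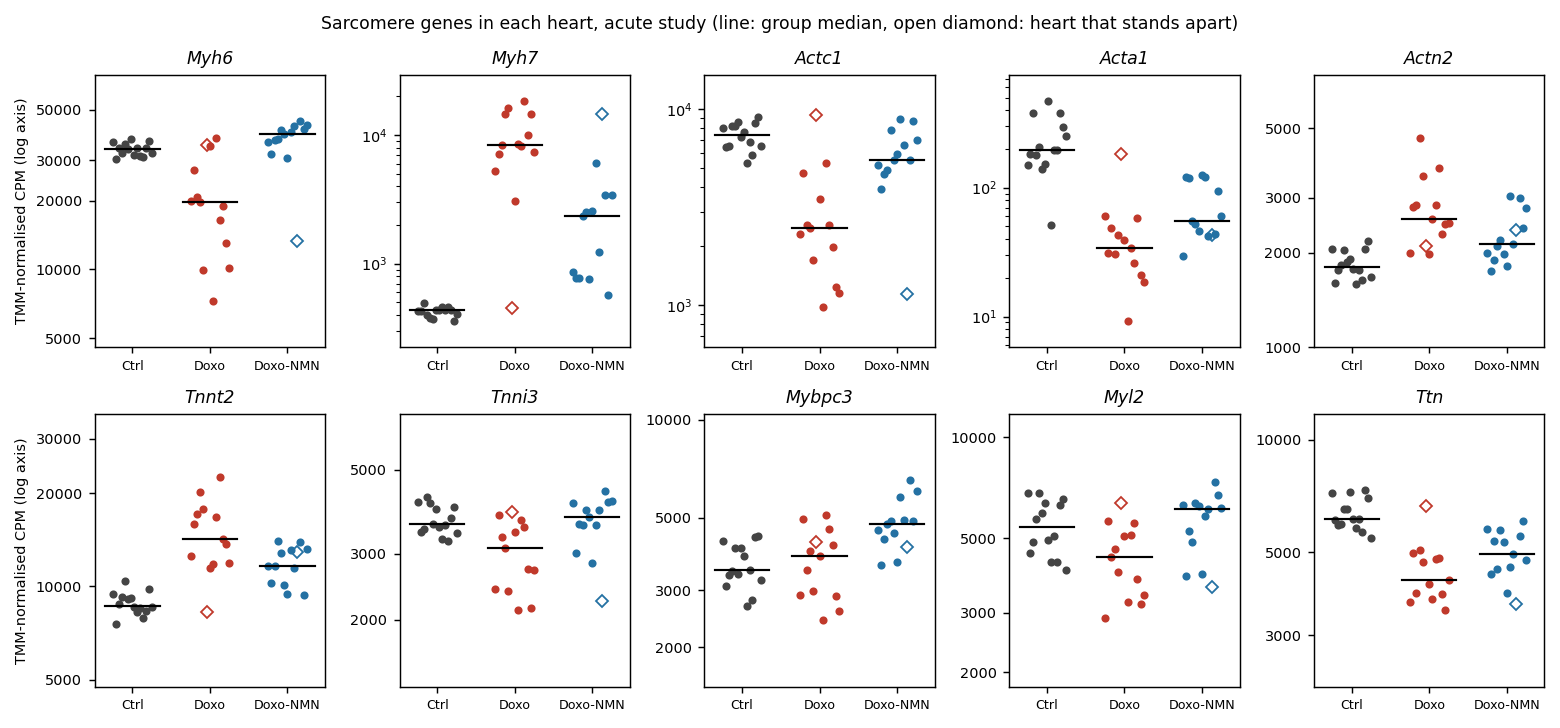
CPM of the 10 genes in each acute heart on log axes, with Ctrl, Doxo and Doxo-NMN hearts as points, the group median as a black line and the hearts that stood apart as open diamonds. Of the 13 Doxo hearts, 12 were above all Ctrl hearts for Myh7 and 12 were below all Ctrl hearts for Actc1 and for Ttn.

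Among the thick filament genes, Myh7 had 357 to 494 CPM (median 433) in Ctrl, 453 to 18492 CPM (median 8388) in Doxo and 570 to 14648 CPM (median 2332) in Doxo-NMN hearts. Thus 12 of 13 Doxo hearts were above all Ctrl hearts and only Doxo heart 6 overlapped with them, and no Doxo-NMN heart overlapped with Ctrl. Myh7 was 22.2-fold higher in Doxo than in Ctrl hearts (log2 fold change 4.48 ± 0.44 SE, adjusted p = 1.43e-10). It was lower in Doxo-NMN than in Doxo hearts (−1.62 ± 0.40, adjusted p = 9.95e-04) and remained higher than in Ctrl (2.86 ± 0.41, adjusted p = 3.94e-06). Without Doxo heart 6 and Doxo-NMN heart 10, the log2 fold changes were 4.59 in Doxo vs. Ctrl and −2.27 in Doxo-NMN vs. Doxo.

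Myh6 had 30283 to 37059 CPM (median 33760.2) in Ctrl, 7283 to 37460.3 CPM (median 19743) in Doxo and 13343 to 44514 CPM (median 39241) in Doxo-NMN hearts. Of the Doxo hearts, 10 were below all Ctrl hearts and 1 was above them, while 8 Doxo-NMN hearts were above all Ctrl hearts and Doxo-NMN heart 10 was below them. Myh6 decreased in Doxo (log2 fold change −0.69 ± 0.18, adjusted p = 8.75e-04), was higher in Doxo-NMN than in Doxo hearts (0.82 ± 0.18, adjusted p = 3.02e-04), and differed by 0.13 ± 0.18 between Doxo-NMN and Ctrl (adjusted p = 0.618).

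The regulatory light chain gene Myl2 is the ventricular member of its family. It had 4029 to 6846 CPM (median 5393) in Ctrl, 2892 to 6366 CPM (median 4409) in Doxo and 3576 to 7339 CPM (median 6133) in Doxo-NMN hearts. The groups overlapped, with 6 Doxo hearts below all Ctrl hearts. The log2 fold changes were −0.31 ± 0.12 for Doxo vs. Ctrl (adjusted p = 0.0223) and 0.34 ± 0.12 for Doxo-NMN vs. Doxo (adjusted p = 0.0178). Within hearts with high Myl4, the first was −0.27 (adjusted p = 0.0683) and the second 0.20 (adjusted p = 0.288).

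Mybpc3 encodes cardiac myosin-binding protein C, which regulates the cross-bridges. It had 2682 to 4403 CPM (median 3455) in Ctrl, 2424 to 5082 CPM (median 3805) in Doxo and 3585 to 6510.4 CPM (median 4776) in Doxo-NMN hearts. It was the only one of the 10 genes not called in Doxo vs. Ctrl (log2 fold change 0.04 ± 0.11, adjusted p = 0.760), and this value was negative with total counts in place of normalized totals and without Doxo heart 2, 9 or 10. In Doxo-NMN hearts it was higher than in Doxo (0.38 ± 0.11, adjusted p = 0.0038) and than in Ctrl (0.42 ± 0.11, adjusted p = 0.00376), with 9 of 13 hearts above all Ctrl hearts. The first was 0.24 (adjusted p = 0.129) within hearts with high Myl4, and the second 0.32 (adjusted p = 0.178) within low and 0.34 (adjusted p = 0.0657) within high hearts.

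Among the thin filament genes, both actins decreased in Doxo hearts. Actc1 had 5339 to 9151 CPM (median 7407) in Ctrl, 975 to 9384 CPM (median 2480.0) in Doxo and 1140.5 to 8885 CPM (median 5529.7) in Doxo-NMN hearts. Of the Doxo hearts, 12 were below all Ctrl hearts, and heart 6 was above all of them. The log2 fold changes were −1.26 ± 0.25 for Doxo vs. Ctrl (adjusted p = 4.31e-05) and 0.92 ± 0.26 for Doxo-NMN vs. Doxo (adjusted p = 0.00271), and Doxo-NMN differed from Ctrl by −0.33 ± 0.25 (adjusted p = 0.335).

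Acta1 had 51.3 to 472 CPM (median 195) in Ctrl, 9.22 to 181 CPM (median 34.0) in Doxo and 29.2 to 125 CPM (median 54.8) in Doxo-NMN hearts. Of the Doxo hearts, 10 were below all Ctrl hearts and none was above them, and the highest Doxo value was that of heart 6. Acta1 decreased in Doxo (log2 fold change −2.32 ± 0.33, adjusted p = 1.83e-07) and in Doxo-NMN compared to Ctrl (−1.65 ± 0.33, adjusted p = 2.90e-04). Thus the isoforms of the fetal heart moved in opposite directions, Myh7 up and Acta1 down. The difference between Doxo-NMN and Doxo (0.66 ± 0.32, adjusted p = 0.0808) did not pass with all hearts and was 1.07 (adjusted p = 0.00147) without Doxo heart 6. Within hearts with high Myl4 it was 1.19 (adjusted p = 0.0343), whereas Doxo-NMN vs. Ctrl was then −1.18 (adjusted p = 0.0798).

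Tnnt2 encodes cardiac troponin T, which ties the troponin complex to tropomyosin. It had 7594 to 10448 CPM (median 8676) in Ctrl, 8288 to 22545 CPM (median 14259.8) in Doxo and 9391 to 14022 CPM (median 11659) in Doxo-NMN hearts, with 12 of 13 Doxo and 9 of 13 Doxo-NMN hearts above all Ctrl hearts. It increased in Doxo (log2 fold change 0.76 ± 0.10, adjusted p = 2.83e-08), was lower in Doxo-NMN than in Doxo (−0.34 ± 0.10, adjusted p = 0.00513) and higher than in Ctrl (0.42 ± 0.10, adjusted p = 0.00163). The value vs. Doxo was −0.30 (adjusted p = 0.0524) within hearts with high Myl4 and that vs. Ctrl 0.35 (adjusted p = 0.15) within hearts with low Myl4.

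Tnni3 encodes the inhibitory subunit of the same complex, and changed the other way. It had 3248 to 4232 CPM (median 3585) in Ctrl, 2128 to 3866 CPM (median 3105) in Doxo and 2246 to 4402 CPM (median 3761) in Doxo-NMN hearts, and 7 Doxo hearts were below all Ctrl hearts. The log2 fold changes were −0.29 ± 0.09 for Doxo vs. Ctrl (adjusted p = 0.00588) and 0.26 ± 0.09 for Doxo-NMN vs. Doxo (adjusted p = 0.0168). The second was 0.28 (adjusted p = 0.0814) within hearts with low Myl4 and 0.20 (adjusted p = 0.202) within those with high Myl4.

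Actn2 encodes α-actinin, which cross-links actin in the Z disc. It had 1596 to 2187 CPM (median 1804) in Ctrl, 1977 to 4634 CPM (median 2564) in Doxo and 1748 to 3027 CPM (median 2139) in Doxo-NMN hearts, with 10 Doxo and 6 Doxo-NMN hearts above all Ctrl hearts. It increased in Doxo (log2 fold change 0.60 ± 0.10, adjusted p = 4.32e-06). The values in Doxo-NMN vs. Doxo (−0.30 ± 0.11, adjusted p = 0.0161) and vs. Ctrl (0.30 ± 0.10, adjusted p = 0.0298) were near the threshold, and the first had an adjusted p of 0.0538 without Doxo heart 4 and the second of up to 0.0657 without Doxo-NMN heart 8, 11 or 13. The second was also 0.28 (adjusted p = 0.0608) with the replicate number as a block, 0.26 (adjusted p = 0.234) within hearts with low Myl4 and 0.15 (adjusted p = 0.329) within those with high Myl4.

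Ttn, the giant spring protein gene, had 5468 to 7342 CPM (median 6142) in Ctrl, 3496 to 6673 CPM (median 4208) in Doxo and 3646 to 6081 CPM (median 4957) in Doxo-NMN hearts. Of the Doxo hearts, 12 were below all Ctrl hearts, as were 9 of the Doxo-NMN hearts. It decreased in Doxo (log2 fold change −0.51 ± 0.08, adjusted p = 1.39e-06) and in Doxo-NMN compared to Ctrl (−0.36 ± 0.08, adjusted p = 0.0014). Doxo-NMN differed from Doxo by 0.15 ± 0.08 (adjusted p = 0.126), and by 0.21 (adjusted p = 0.0161) without Doxo heart 6. It also passed with total counts over all hearts (0.24, adjusted p = 0.00271) and within hearts with high Myl4 (0.24, adjusted p = 0.0291).

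Between Doxo-NMN and Doxo hearts, 8 of the 10 genes passed (5 with higher and 3 with lower levels in Doxo-NMN), in a comparison with 53% of all tested genes called, and 3 of them had a fold change of at least 1.5 as well, against 17.1%. Between Doxo-NMN and Ctrl hearts, 6 of the 10 genes passed (4 with higher and 2 with lower levels) against 26%, and 2 of them, Myh7 and Acta1, had a fold change of at least 1.5 as well, against 7.11%. The median absolute log2 fold changes of the 10 genes were 0.36 and 0.35, beside 0.27 and 0.17 for all tested genes. The comparisons share the Doxo and the Ctrl hearts. Without Doxo heart 6 and Doxo-NMN heart 10, 10 genes were called in Doxo-NMN vs. Doxo, with 8604 of 14275 tested genes called. As both hearts were set apart by Myh7, this fit is no test of Myh7.

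Atrial markers varied among the acute hearts. The Myl4 limit was passed by 8 of 14 Ctrl, 5 of 13 Doxo and 4 of 13 Doxo-NMN hearts. Of the 6 atrial markers, 1 was called lower in Doxo than in Ctrl. The calls were repeated within hearts with low and with high Myl4. In Doxo vs. Ctrl, 9 genes were called within low and 8 within high hearts, against 54.8% and 60.1% of all tested genes, with log2 fold changes of 4.64 and 4.25 for Myh7, −1.24 and −1.51 for Actc1 and −2.25 and −2.38 for Acta1. Between Doxo-NMN and Doxo, 6 of the 10 passed within each class, against 39.1% and 39.3% of all tested genes, with Myh7 at −1.44 and −2.37 and Actc1 at 0.83 (adjusted p = 0.0811) and 1.05 (adjusted p = 0.00108). Between Doxo-NMN and Ctrl, 3 of the 10 passed within each class, against 7.88% and 9.12%, with Myh7 at 3.19 and 1.87. Red cell marker genes also differed, with a summed level of 437 to 4311 CPM in Ctrl, 1.19 to 338 CPM in Doxo and 0.209 to 2.81 CPM in Doxo-NMN hearts, and whether this has a part in the results was not tested.

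**Figure D2:**
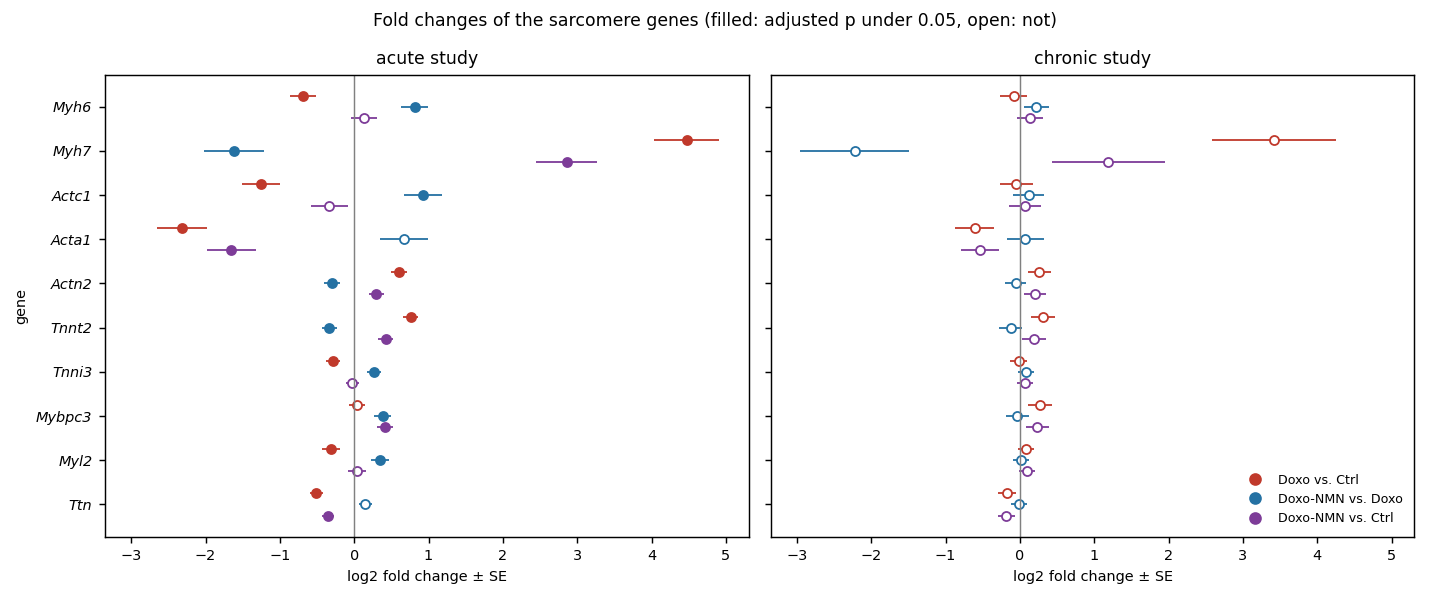
Log2 fold changes of the 10 genes in the 3 comparisons of each study, with bars for ± SE. In the acute study, Myh7 (4.48) and Acta1 (−2.32) were farthest from 0 in Doxo vs. Ctrl, and in the chronic study the bars of Myh7 were the widest.

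The Myh7 to Myh6 ratio was computed in each heart from counts per exon length, so that it does not depend on the library total. It was 0.00766 to 0.0116 (median 0.00996) in acute Ctrl, 0.0101 to 1.27 (median 0.414) in Doxo and 0.0108 to 0.857 (median 0.0488) in Doxo-NMN hearts. Thus 12 of 13 Doxo hearts and 12 of 13 Doxo-NMN hearts were above all Ctrl hearts. The mean log2 ratio was 4.95 ± 0.53 (SE) higher in Doxo than in Ctrl, the p-value being the smallest that 100000 resamples can give (two-sided permutation test, p = 1e-05, adjusted over 12 ratio comparisons p = 6e-05). It was 2.86 ± 0.70 lower in Doxo-NMN than in Doxo (log2 difference −2.86, permutation p = 0.0008, adjusted p = 0.0032) and 2.09 ± 0.47 higher than in Ctrl (permutation p = 1e-05, adjusted p = 6e-05). Without Doxo heart 6 the Doxo ratios ran from 0.0696 to 1.27, and without heart 10 the Doxo-NMN ratios ran from 0.0108 to 0.118.

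The Acta1 to Actc1 ratio was 0.0101 to 0.0653 (median 0.0301) in acute Ctrl, 0.00673 to 0.0310 (median 0.0170) in Doxo and 0.00593 to 0.0399 (median 0.0114) in Doxo-NMN hearts. The groups overlapped, with 3 Doxo and 6 Doxo-NMN hearts below all Ctrl hearts. The log2 ratio fell by 0.97 in Doxo (SE 0.28, permutation p = 0.00203, adjusted p = 0.00487) and by 1.19 in Doxo-NMN compared to Ctrl (SE 0.32, permutation p = 0.00134, adjusted p = 0.00402). Doxo-NMN and Doxo differed by −0.22 (SE 0.32, permutation p = 0.498, adjusted p = 0.543). Within hearts with high Myl4, the differences from Ctrl were −0.66 (exact permutation test, adjusted p = 0.257) in Doxo and −0.56 (adjusted p = 0.358) in Doxo-NMN, and within hearts with low Myl4 they were −1.07 (adjusted p = 0.028) and −1.35 (adjusted p = 0.0139).

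**Figure D3:**
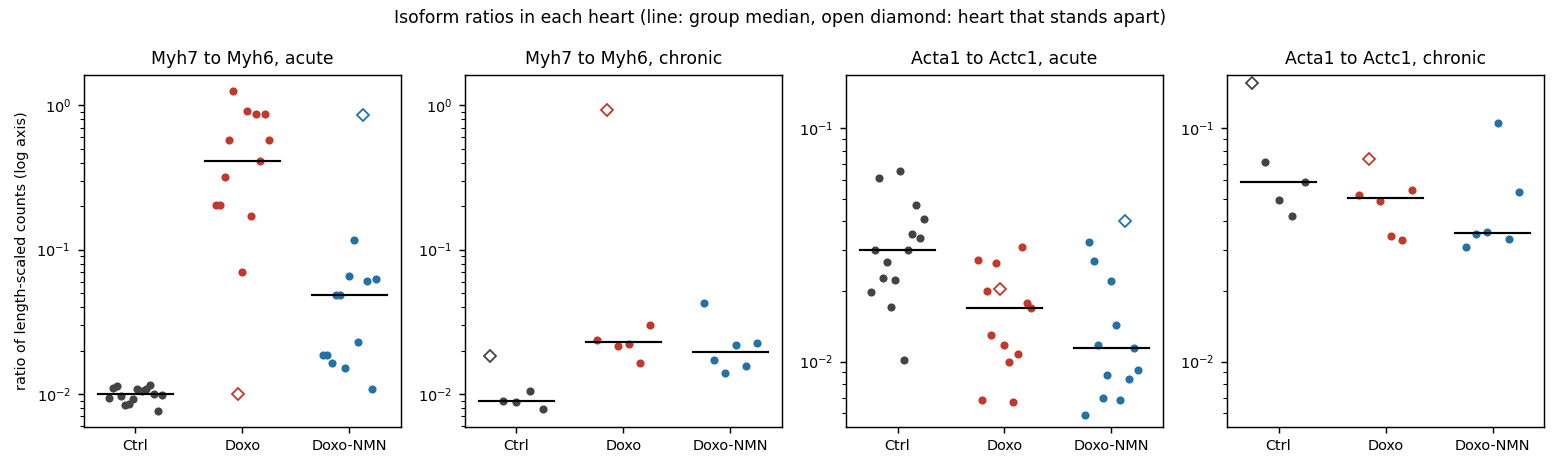
Myh7 to Myh6 and Acta1 to Actc1 ratios per heart on log axes in both studies, with the group median as a black line and the hearts that stood apart as open diamonds. The median Myh7 to Myh6 ratio was 0.00996 in acute Ctrl, 0.414 in acute Doxo and 0.0488 in acute Doxo-NMN hearts.

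The treated hearts of a group differed widely in the Myh7 to Myh6 ratio, and this spread was set beside the other genes. Each acute heart was placed on a line from the mean of the Ctrl hearts (0) to the mean of the Doxo hearts (1) in log2 CPM, using all tested genes except the 10. Ctrl hearts lay between −0.04 and 0.0933, Doxo hearts between 0.0277 and 1.46 and Doxo-NMN hearts between 0.237 and 0.908. Heart 6 was the Doxo heart at 0.0277 and heart 10 the Doxo-NMN heart at 0.908.

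Within the Doxo hearts, the log2 Myh7 to Myh6 ratio rose with this position (n = 13, Pearson r = 0.948, permutation p = 3e-05, adjusted over 4 relations p = 6e-05, Spearman rho = 0.885, p = 0.00013, adjusted p = 0.00052), and r was 0.82 without the 2 hearts farthest from the median. Within the Doxo-NMN hearts it rose likewise (n = 13, r = 0.947, permutation p = 2e-05, adjusted p = 6e-05, rho = 0.846, p = 0.00037, adjusted p = 0.00074), and r was 0.827 without the 2 farthest hearts. For the Acta1 to Actc1 ratio, no such relation was found in Doxo hearts (r = 0.0187, permutation p = 0.951, rho = −0.00549, p = 0.993, adjusted p = 0.951 and 0.993, r = 0.158 without 2 hearts). In Doxo-NMN hearts r was 0.209 (permutation p = 0.508, adjusted p = 0.677, rho = −0.0275, p = 0.934, adjusted p = 0.993), and r was −0.497 without 2 hearts. Acta1 and Actc1 both decreased in Doxo hearts, and a change common to both is not seen in their ratio. The line was drawn from the means of these same hearts. How many other genes follow the position as closely was not counted, so whether the relation is particular to the Myh7 to Myh6 ratio was not tested. The chronic Ctrl hearts lay at 0.32 to 0.575 on the line, so it was used in the acute study only.

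**Figure D4:**
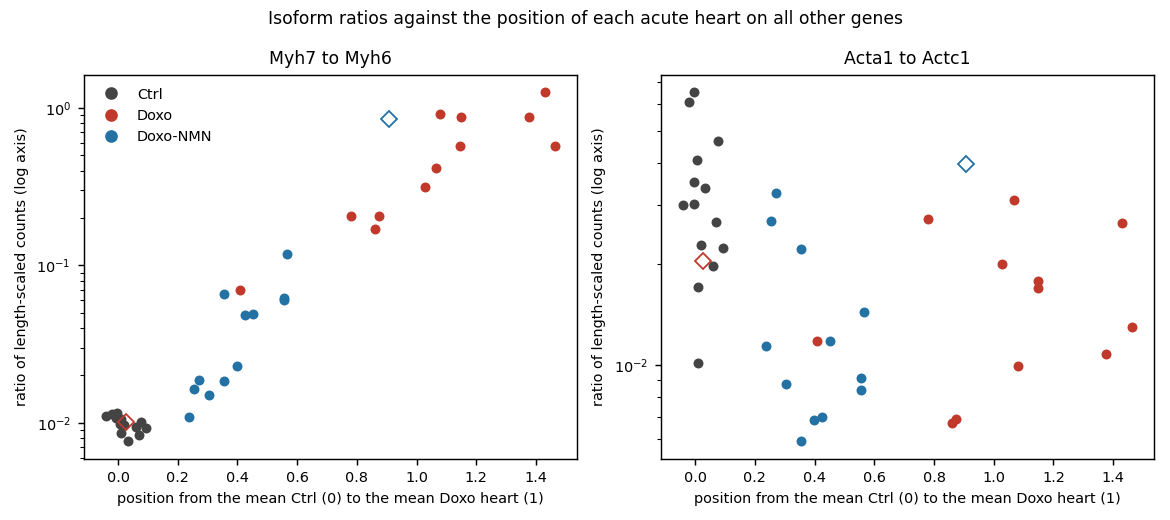
Myh7 to Myh6 and Acta1 to Actc1 ratios of the acute hearts (log axes) against each heart's position between the Ctrl mean (0) and the Doxo mean (1) over all other tested genes. The Myh7 to Myh6 ratio rose with the position within Doxo (r = 0.948) and within Doxo-NMN hearts (r = 0.947), and open diamonds mark Doxo heart 6 and Doxo-NMN heart 10.

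In the chronic study, none of the 10 genes was called in Doxo vs. Ctrl, Doxo-NMN vs. Doxo or Doxo-NMN vs. Ctrl by edgeR or by DESeq2, in comparisons in which edgeR called 0.0602%, 0% and 0.0401% of 14960 tested genes. Over all genes, 1174, 441 and 707 had an unadjusted p-value under 0.05 in edgeR, and DESeq2 called 24, 0 and 8. Of the 10 genes, 2 had an unadjusted p under 0.05 in Doxo vs. Ctrl (Myh7 and Acta1) and 1 in Doxo-NMN vs. Doxo (Myh7). The median absolute log2 fold change of the 10 genes was 0.22, 0.08 and 0.18, beside 0.12, 0.09 and 0.10 for all tested genes.

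Myh7 had 598, 412, 345, 457 and 370 CPM in the 5 chronic Ctrl hearts, 652 to 23152 CPM (median 1084) in Doxo and 666 to 1884 CPM (median 823) in Doxo-NMN hearts. All 6 Doxo and all 6 Doxo-NMN hearts were above all 5 Ctrl hearts, with no overlap. How many of all tested genes separate the groups as fully was not counted in either study. The fitted log2 fold changes had wide errors, 3.42 ± 0.83 for Doxo vs. Ctrl (p = 5.63e-04, adjusted p = 0.301), −2.22 ± 0.73 for Doxo-NMN vs. Doxo and 1.19 ± 0.76 for Doxo-NMN vs. Ctrl (both adjusted p = 0.999), and both values that include the Doxo group rested on Doxo heart 2. Without Doxo heart 2 the Doxo hearts had 652 to 1149 CPM, and the log2 difference from Ctrl was 1.14. Without both Ctrl heart 1 and Doxo heart 2, it was 1.27 between Doxo and Ctrl, 1.33 between Doxo-NMN and Ctrl and 0.06 between Doxo-NMN and Doxo, which is opposite in sign to the value with all hearts. Doxo-NMN heart 1, the highest of its group at 1884 CPM, was kept in this fit. With no filter on low counts, Myh7 was called in Doxo vs. Ctrl (adjusted p = 0.00745), and DESeq2 gave Myh7 no adjusted p.

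Acta1 had 1069, 722, 529, 447 and 648 CPM in the chronic Ctrl hearts, 292 to 635 CPM (median 439) in Doxo and 309 to 762 CPM (median 401) in Doxo-NMN hearts. The groups overlapped, with 3 Doxo hearts below all Ctrl hearts. Compared to Ctrl, the log2 fold change was −0.61 ± 0.26 for Doxo (p = 0.0293, adjusted p = 0.603) and −0.53 ± 0.26 for Doxo-NMN (adjusted p = 0.999). The heart with the most Acta1, Ctrl heart 1, was also the one with the most skeletal muscle markers, among them Myh4 at 1127 CPM against a Ctrl median of 309.8, and Ctrl heart 2 was second among the Ctrl hearts in Acta1 and in the marker sum. Without Ctrl heart 1 and Doxo heart 2 the Acta1 values were −0.29 and −0.32, and with the skeletal muscle marker sum as a covariate the Doxo vs. Ctrl value was −0.24.

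Actc1 had 7183, 10579, 11324, 11188 and 11641 CPM in the chronic Ctrl hearts, 4172 to 12971 CPM (median 10689) in Doxo and 7619.5 to 12759.8 CPM (median 11424) in Doxo-NMN hearts, and the groups overlapped, with Doxo heart 2 the lowest. Across Myh6, Actc1, Actn2, Tnnt2, Tnni3, Mybpc3, Myl2 and Ttn, the chronic Doxo vs. Ctrl log2 fold changes lay between −0.17 (Ttn) and 0.31 (Tnnt2), those in Doxo-NMN vs. Doxo between −0.12 (Tnnt2) and 0.22 (Myh6), and those in Doxo-NMN vs. Ctrl between −0.18 (Ttn) and 0.24 (Mybpc3). Doxo heart 2 had the most Tnnt2, 27420.0 CPM against 13485 to 15352 in the other Doxo hearts, and the least Myh6, 19340.5 CPM. For Myh6, the 95% interval of the Doxo vs. Ctrl difference ran from −0.43 to 0.26.

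The other chronic levels overlapped between the groups in every gene. Tnnt2 had 12598 to 14795 CPM in Ctrl (median 12781), 13485 to 27420.0 in Doxo (median 14893) and 13737 to 17481 in Doxo-NMN hearts (median 15049.8), with 3 of 6 Doxo and 4 of 6 Doxo-NMN hearts above all Ctrl hearts. Mybpc3 had 3436 to 5328 CPM in Ctrl (median 4506), 4239.9 to 7018 in Doxo (median 5237) and 3399 to 6016 in Doxo-NMN hearts (median 5426), with 3 and 4 hearts above all Ctrl hearts. Actn2 had 1523 to 2410.4 CPM in Ctrl (median 2159), 1939 to 3399.5 in Doxo (median 2379) and 1672 to 2772 in Doxo-NMN hearts (median 2473), with 3 hearts of each treated group above all Ctrl hearts. Thus, for each of these 3 genes, some treated hearts exceeded the Ctrl range and others did not. Ttn had 2765 to 3997 CPM in Ctrl (median 3155), 2636 to 3266 in Doxo (median 2907) and 2382 to 3277 in Doxo-NMN hearts (median 2985), with 3 Doxo and 2 Doxo-NMN hearts below all Ctrl hearts. The medians of Myh6 in Ctrl, Doxo and Doxo-NMN hearts were 33758, 30279 and 36624 CPM, those of Tnni3 were 3315, 3331 and 3679.9 CPM, and those of Myl2 were 6768, 7299 and 7373 CPM.

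**Figure D5:**
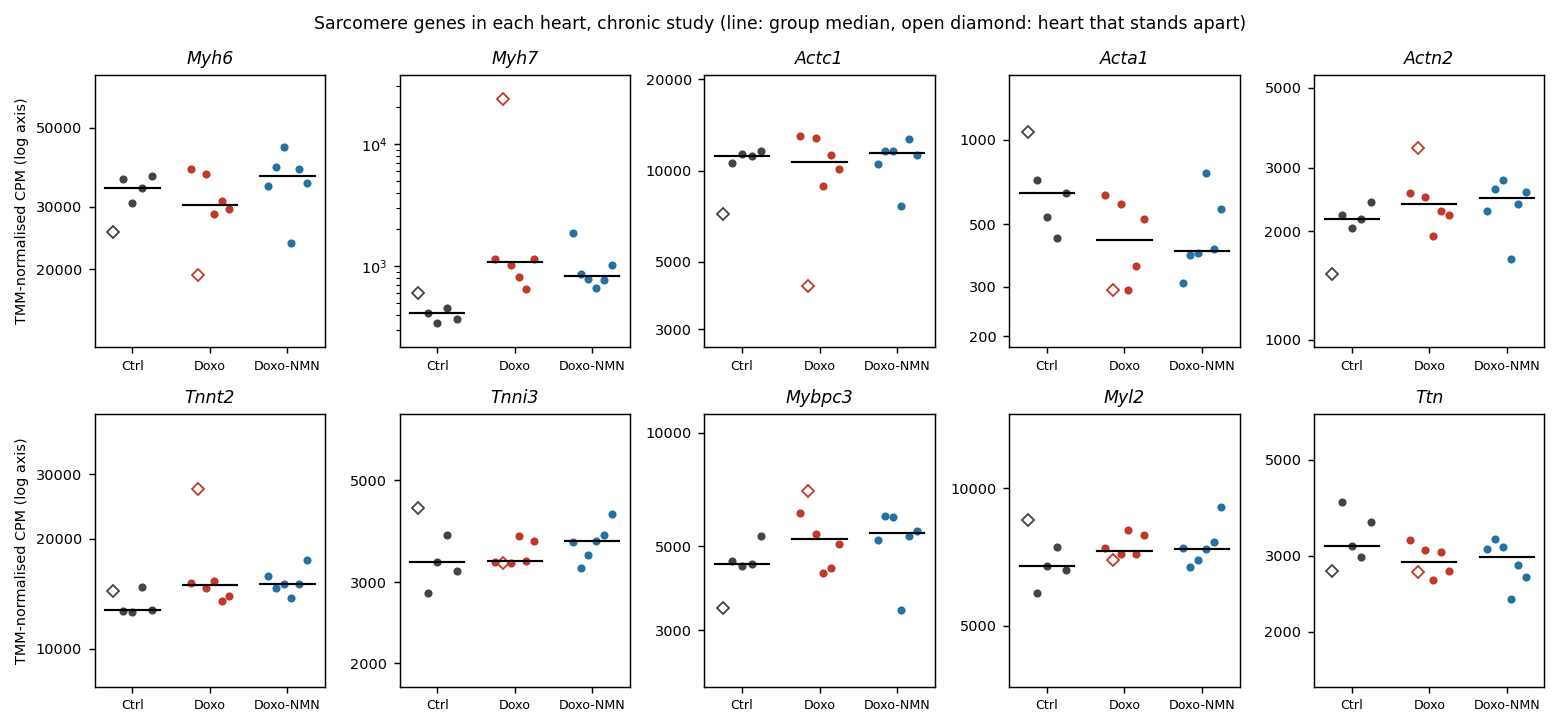
CPM of the 10 genes in each chronic heart on log axes, with the group median as a black line and the hearts that stood apart as open diamonds. All 12 treated hearts were above the 5 Ctrl hearts for Myh7, and Doxo heart 2 had 23152 CPM. With all hearts and the filter on low counts, Myh7 was not called.

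The chronic Myh7 to Myh6 ratio was 0.0183, 0.00897, 0.00879, 0.0106 and 0.0079 in Ctrl, 0.0164 to 0.934 (median 0.0229) in Doxo and 0.0140 to 0.0429 (median 0.0195) in Doxo-NMN hearts. Of the 6 Doxo hearts 5 were above all Ctrl hearts, and of the 6 Doxo-NMN hearts 3 were. The log2 ratio was 2.01 ± 0.93 higher in Doxo (exact two-sided permutation test, p = 0.0152, adjusted p = 0.0297) and 1.0 ± 0.32 higher in Doxo-NMN (exact p = 0.0173, adjusted p = 0.0297) than in Ctrl. Doxo-NMN and Doxo differed by −1.0 ± 0.94 (exact p = 0.361, adjusted p = 0.433), and the smallest p that 6 against 5 hearts can give is 0.00216. Without Doxo heart 2 the difference between Doxo and Ctrl was 1.11, and without Ctrl heart 1 and Doxo heart 2 it was 1.31. Leaving out any 1 Ctrl heart gave adjusted p-values of up to 0.106 for Doxo vs. Ctrl, and for Doxo-NMN vs. Ctrl 7 of the 11 hearts, left out 1 at a time, raised the adjusted p to between 0.0544 and 0.0571.

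The chronic Acta1 to Actc1 ratio was 0.157, 0.0719, 0.0492, 0.0421 and 0.0587 in Ctrl, 0.0331 to 0.0736 (median 0.0501) in Doxo and 0.0309 to 0.105 (median 0.0355) in Doxo-NMN hearts. The log2 ratio differed by −0.50 ± 0.38 in Doxo and by −0.61 ± 0.43 in Doxo-NMN from Ctrl (exact permutation, both adjusted p = 0.268). Ctrl heart 1 was the highest, and without it the differences were −0.19 and −0.30. Without Doxo-NMN heart 4, which had the highest Doxo-NMN ratio, the Doxo-NMN difference was −0.86 (exact permutation, adjusted p = 0.0357).

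The effect of Doxo was compared between the studies with an interaction test on the Ctrl and Doxo hearts of both. It differed for Actc1 (chronic minus acute log2 fold change 1.21 ± 0.44, adjusted p = 0.0477) and Acta1 (1.71 ± 0.57, adjusted p = 0.0338), both nearer to 0 in the chronic study, in a test that called 19.3% of 14965 genes. For Myh7 the difference was −1.04 ± 0.75 (adjusted p = 0.320) with all hearts. Without acute Doxo heart 6 and chronic Doxo heart 2, which were set apart by their own Myh7 levels, the Myh7 difference was −3.44, a description with no test. In this fit, which called 35.6% of all genes, the values of Acta1, Actc1, Myh6, Tnnt2 and Ttn were 2.22, 1.65, 0.80, −0.69 and 0.43. Dose schedule, time, age, site and sequencing provider differ between the studies and cannot be told apart. The tissue also differed. The skeletal muscle marker sum was 2.55 to 7.26 CPM (Ctrl) and 3.07 to 7.11 CPM (Doxo) in acute hearts. In chronic hearts it was 725 to 2693 CPM (Ctrl) and 554 to 1086 CPM (Doxo). Atrial markers differed too, and the part of either tissue in these values was not tested.

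Other genes of the sarcomere were counted in 4 lists. Of 15 genes of the Z disc and the intermediate filaments, 13 increased, 1 decreased and 1 was not called in acute Doxo vs. Ctrl, where 34.8% of all tested genes increased and 33.3% decreased, with a median log2 fold change of 0.80 beside 0.00 over all tested genes. The increases included Xirp1, an actin-binding protein of the intercalated disc (276 ± 39.4 CPM in Ctrl and 947 ± 573 in Doxo hearts, log2 fold change 1.78, adjusted p = 6.83e-08), Pdlim3, a partner of α-actinin (1.10, adjusted p = 2.66e-04), and Tcap, which caps titin in the Z disc (1.03, adjusted p = 1.69e-08), whereas Synpo2 decreased (−0.66, adjusted p = 7.97e-06). In Doxo-NMN vs. Doxo, where 25.7% of all tested genes were higher and 27.4% lower, 1 of the 15 was higher and 10 were lower, among them Xirp1 (−1.36) and Pdlim3 (−0.99). Tcap was not among them (−0.03, adjusted p = 0.860) and was higher in Doxo-NMN than in Ctrl hearts (0.997, adjusted p = 8.65e-07).

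Of 13 further thin filament genes, 5 increased, 6 decreased and 2 were not called in acute Doxo vs. Ctrl (34.8% and 33.3% of all tested genes), with a median of 0.08. The largest increases were those of Lmod2, which lengthens the filament (0.86, adjusted p = 2.59e-06), Cfl2, a muscle cofilin (0.66, adjusted p = 6.65e-08), and Neb, nebulin (0.58, adjusted p = 0.00238). The largest decreases were those of Lmod3, a relative of Lmod2 (−1.25, adjusted p = 1.74e-06), Tpm2, a tropomyosin (−1.04, adjusted p = 0.00139), and Tmod4, a tropomodulin that caps filaments (−0.57, adjusted p = 8.53e-05). In Doxo-NMN vs. Doxo, 4 were higher, with Lmod3 at 1.08, and 4 were lower.

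Of 13 further genes of the thick filament and the M band, 5 increased, 5 decreased and 3 were not called in the same comparison (34.8% and 33.3% of all tested genes), with a median of −0.00. Increases were found for Myom2 and Myom3, myomesins of the M band (1.23, adjusted p = 3.40e-08, and 0.71, adjusted p = 2.70e-05), and Trim63, a muscle ubiquitin ligase (1.09, adjusted p = 2.92e-06). Obsl1, an obscurin relative (−0.78, adjusted p = 7.28e-09), Myl3, the ventricular essential light chain (−0.43, adjusted p = 0.00252), and Smyd1, a methyltransferase that helps myosin assembly (−0.33, adjusted p = 0.00144), decreased. In Doxo-NMN vs. Doxo, 5 were higher and 4 were lower, with Obsl1 at 0.65 and Myom2 at −0.73.

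Of 12 isoforms of other muscle or of development, 10 could be tested, of which 1 increased, 4 decreased and 5 were not called in acute Doxo vs. Ctrl (34.8% and 33.3% of all tested genes), with a median of −0.83. Actn1, the non-muscle α-actinin, increased (0.57, adjusted p = 0.00161), and Myl1, a light chain of skeletal muscle (−1.35, adjusted p = 3.52e-05), Myl9 (−1.07, adjusted p = 0.00442) and Acta2 (−0.96, adjusted p = 5.66e-04), both of smooth muscle, decreased. The summed level of 4 smooth muscle markers, Acta2 among them, was 102 to 281 CPM in Ctrl and 36.3 to 185 CPM in Doxo hearts, and its part in these values was not tested. The list also holds the atrial light chain genes Myl4 and Myl7. Their medians were 797 and 522 CPM in acute Ctrl and 8.36 and 4.48 CPM in acute Doxo hearts. The part of atrial tissue in the median of the list was not tested. None of the genes of the 4 lists was called in a chronic comparison.

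The genes whose log2 CPM followed that of Myh7 most closely across the 40 acute hearts were Ccdc192, Irs2 and Syt12, with root mean square differences of 0.59, 0.68 and 0.70, beside a standard deviation of Myh7 of 2.03. For Acta1, with a standard deviation of 1.35, they were Cilp (0.72), Adamtsl2 (0.75) and Ube2l6 (0.75). Across the 17 chronic hearts they were Spock2 (0.47), Hif3a (0.54) and Arrdc2 (0.60) for Myh7 and Prkag3, Camkk1 and Cenpj (0.32 each) for Acta1. The chronic standard deviation of Myh7 was 1.37, with 23152 CPM in Doxo heart 2 and 345 to 1884 CPM in the other hearts. The hearts of all groups are included in these values, so that genes with like group differences, or a like value in such a single heart, come first.

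Myh7 also overlaps Mhrt, an antisense transcript of the same locus, by 484 exon bases, which is 5.62% of the Myh7 exons, and whether the counting used the strand is not given in the sources used here. Mhrt had 39.5 ± 4.79 CPM in acute Ctrl (n = 14), 17.5 ± 16.3 in Doxo (n = 13) and 40.9 ± 12.8 in Doxo-NMN hearts (n = 13). It decreased in Doxo (log2 fold change −1.17 ± 0.33, adjusted p = 0.00214) and was higher in Doxo-NMN than in Doxo (1.22 ± 0.34, adjusted p = 0.00264), which is opposite to Myh7 in both comparisons. In the chronic study Mhrt was not called (−0.39 ± 0.30 in Doxo vs. Ctrl, adjusted p = 0.760).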

How the data were processed

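Heart RNA of the 57 mice was sequenced by the authors' providers after poly(A) selection, as single-end reads. The deposited values are the authors' counts of reads per gene, as whole numbers and not normalized. Per the submitters' processing notes they were made on mm10 with STAR 2.7.3a and featureCounts 2.0.0; the annotation and the strand setting are not given in the sources used here. Of the acute counts from 1 to 20, a median of 73.6% per heart were even numbers, against 40.3% in the chronic study, so acute counts were also tested after division by 2.

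Groups and replicate numbers were taken from the labels. Each study was fitted with edgeR 4.0.16 (R 4.3.3), with all 3 groups in 1 fit, after filterByExpr and TMM normalization, and tested by quasi-likelihood F-tests with Benjamini-Hochberg adjustment. Ratios used counts per exon length (GENCODE vM21) and two-sided permutation tests of the mean log2 ratio, exact for groups under 10 hearts and with 100000 resamples for larger ones, adjusted over 12 comparisons. No library was found to be repeated (chi-square per gene at least 10.4 for any acute and 5.49 for any chronic pair). P-values measure the spread between mice, and floors of 3 counts cover counting error only. The names matched GENCODE for 98.0% of acute and 99.0% of chronic genes.

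The 10 genes and the lists were chosen with earlier results of these data known. All 10 genes are named; of each list, at most 3 called genes per direction of acute Doxo vs. Ctrl with the largest fold change, and any called in a chronic comparison. Genes most like Myh7 and Acta1 are the 3 with the smallest root mean square difference of centred log2 CPM. Alternatives were DESeq2 1.42.0, RLE factors, total counts, no low-count filter, only the groups compared, a fold change cutoff, divided acute counts, hearts with low or high Myl4, medians and the replicate number as a block, and each heart left out in turn. Leaving out pairs of hearts that stood apart and the skeletal muscle covariate were chosen after seeing the data.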

Additional observations from a re-analysis of the deposited data

Results flagged for a closer look

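Single hearts lay far from the rest of their group (Dixon's test, 36 groups of values of 4 to 10 hearts, which were all chronic, and chance alone gives about 1 in 20 groups). Ctrl heart 1 had 7183 CPM of Actc1 (10579 to 11641 in the other Ctrl hearts), a Myh7 to Myh6 ratio of 0.0183 (0.0079 to 0.0106) and an Acta1 to Actc1 ratio of 0.157 (0.0421 to 0.0719). Doxo heart 2 had 23152 CPM of Myh7 (652 to 1149 in the other Doxo hearts), 27420.0 CPM of Tnnt2 (13485 to 15352) and a Myh7 to Myh6 ratio of 0.934 (0.0164 to 0.0303). Doxo-NMN heart 1 had 1884 CPM of Myh7 (666 to 1015) and a Myh7 to Myh6 ratio of 0.0429 (0.0140 to 0.0227). Doxo-NMN heart 4 had 3399 CPM of Mybpc3 (5207 to 6016) and an Acta1 to Actc1 ratio of 0.105 (0.0309 to 0.0533). By the edgeR interaction test, the effect of Doxo differed between the studies for Actc1 (chronic minus acute log2 fold change 1.21, adjusted p = 0.0477) and Acta1 (1.71, adjusted p = 0.0338). This test called 19.3% of 14965 genes, which is close to the share called among the 10 genes.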

How the results depend on the processing

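In the acute study, requiring a fold change of at least 1.5 as well left 4289, 2428 and 1012 genes called for Doxo and Ctrl, for Doxo-NMN and Doxo, and for Doxo-NMN and Ctrl, with 3 and 2 of the 10 genes in the comparisons of Doxo-NMN. In Doxo-NMN vs. Ctrl, 1124 and 1345 genes and 3 and 3 of the 10 genes were called within hearts with low and with high Myl4, which are fewer hearts. With total counts the median log2 fold change of all genes shifted to −0.091 (Doxo vs. Ctrl) and 0.082 (Doxo-NMN vs. Doxo), where 4420 genes were then higher and 2658 lower, against 3656 and 3898. In chronic Doxo vs. Ctrl, DESeq2 called 24 genes, no low-count filter 15 with 1 of the 10 genes, Myh7, and leaving out Ctrl heart 1 and Doxo heart 2 called 14, with 1 of the 10 genes, Myh7, in Doxo-NMN vs. Ctrl, which is no test of Myh7 since heart 2 was set apart by it. The interaction called 5325 genes without acute Doxo heart 6 and chronic Doxo heart 2. The cause was not tested.

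Same-numbered hearts were not paired (3, 7 and 8 of 13 acute pairs and 0 of 5, 2 of 6 and 3 of 5 chronic pairs had a correlation over 0.1). With the replicate block, 9387 genes and 9 of the 10 genes were called in acute Doxo vs. Ctrl, and the chronic Myh7 to Myh6 differences were 2.10 and 0.98 from Ctrl (exact permutation of pairs, both adjusted p = 0.107). With 5 pairs the smallest unadjusted p is 0.0625, which both had, so that this test could not pass. The difference of medians for Doxo-NMN vs. Ctrl was 1.12 (exact permutation, adjusted p = 0.0557). Within hearts with high Myl4, the Acta1 to Actc1 differences were −0.66, 0.10 and −0.56, and the chronic one for Doxo-NMN vs. Doxo was 0.018 without Ctrl heart 1 and Doxo heart 2. Chronic hearts had no Myl4 over 100 CPM and were not divided.

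Leaving out 1 heart at a time gave 9 of the 10 genes in acute Doxo vs. Ctrl in every fit, 7 to 10 in Doxo-NMN vs. Doxo and 5 to 6 in Doxo-NMN vs. Ctrl, none in the chronic study, and 5 to 11 genes in chronic Doxo vs. Ctrl. Over all genes, the acute fits called 9447 to 10001, 7135 to 8303 and 3113 to 4140, beside 14240 tested with all hearts. Chronic Myh7 to Myh6 differences were 1.11 to 2.27 in Doxo vs. Ctrl, and 0.79 to 1.21 in Doxo-NMN vs. Ctrl. Chronic Acta1 to Actc1 differences were −0.36 to 0.018 in Doxo-NMN vs. Doxo and −0.86 to −0.30 in Doxo-NMN vs. Ctrl.

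The sign turned for small fold changes. In acute Doxo vs. Ctrl, Mybpc3 was −0.055 with total counts, −0.096 within hearts with low Myl4 and −0.019 to 0.0803 without 1 heart. In acute Doxo-NMN vs. Ctrl, Tnni3 was 0.021 without Doxo heart 6 and Doxo-NMN heart 10 and −0.0498 to 0.021 without 1 heart, and Myl2 was −0.099 and −0.072 within hearts with low and high Myl4 and −0.0049 to 0.076 without 1 heart. In chronic Doxo vs. Ctrl without Ctrl heart 1 and Doxo heart 2, Actc1 was 0.0036 and Tnni3 0.085. In chronic Doxo-NMN vs. Doxo without them, Myh7 was 0.055, Actc1 −0.046, Acta1 −0.029, Actn2 0.049, Tnnt2 0.071, Mybpc3 0.0502 and Myl2 −0.0086. In chronic Doxo-NMN vs. Ctrl, Actc1 was −0.043 without them and −0.22 with the skeletal muscle covariate. Without 1 heart, chronic Doxo vs. Ctrl gave −0.16 to 0.0204 for Myh6, −0.16 to 0.11 for Actc1 and −0.079 to 0.072 for Tnni3. Doxo-NMN vs. Doxo gave −2.52 to 0.055 for Myh7, −0.046 to 0.20 for Actc1, −0.12 to 0.19 for Acta1, −0.12 to 0.048 for Actn2, −0.18 to 0.071 for Tnnt2, −0.096 to 0.056 for Mybpc3, −0.046 to 0.0397 for Myl2 and −0.051 to 0.037 for Ttn, and Doxo-NMN vs. Ctrl gave −0.043 to 0.15 for Actc1.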
